A study of Mus musculus with 13 samples.

Results

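RNA of 10 chaperone genes was compared between 10 MP EPO-GEMM ovarian tumors and 3 wild-type (WT) mouse ovaries. The genes are Tcp1, Cct2, Cct3, Cct4, Cct5, Cct7, Cct8, Hspd1, Hspe1 and Hsp90ab1. They were taken by name from the 53465 genes of the deposited expression table, and all 10 passed the filter on low values. The WT group was 3 ovaries of non-treated C57BL/6 females, whose labels carry the same age of 8 to 12 wk as those of the tumor group. The MP group (genotype Myc;p53-/- EPO-GEMM in the labels) was 10 non-treated tumors of C57BL/6 females. In these, a transposon vector overexpressing MYC and a CRISPR-Cas9 vector with an sgRNA against Trp53 had been electroporated into the ovary at 8 to 12 wk of age. Electroporation does not select a cell type, the tumors were oligoclonal, and RNA came from whole tumor tissue at end point, so malignant and host cells were read together. In such bulk tissue, fewer cells of a type and less RNA per cell cannot be told apart.

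TRiC, also called CCT, is a barrel of stacked rings in the cytosol in which newly made actin, tubulin and other proteins fold. Tcp1 and the Cct genes encode its subunits, and every ring needs each of them. In mitochondria, Hspd1 encodes HSP60, a chaperonin barrel that encloses unfolded proteins, and Hspe1 encodes HSP10, the lid of that barrel. Hsp90ab1 encodes the constitutive cytosolic HSP90, which helps kinases, hormone receptors and other clients reach their active form. The transcription factor encoded by Hsf1 drives many chaperone genes through heat shock elements, which are inverted repeats of GAA.

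Hspd1 and Hspe1 are neighbors read in opposite directions. In the GRCm38 coordinates of the table, Hspd1 (ENSMUSG00000025980) covers chromosome 1 from 55077835 to 55088243 on the minus strand. Hspe1 (ENSMUSG00000073676) covers chromosome 1 from 55088132 to 55091307 on the plus strand, so the genes overlap by 112 bases. Whether reads were counted by strand was not stated, so reads in the overlap cannot be told apart. The called TRiC members were Tcp1 (ENSMUSG00000068039; chromosome 17, 12915701 to 12925067, plus strand), Cct3 (ENSMUSG00000001416; chromosome 3, 88297116 to 88321767, plus strand) and Cct5 (ENSMUSG00000022234; chromosome 15, 31590800 to 31601804, minus strand).

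RefSeq promoter windows (GRCm38.p6, 250 bases before to 50 after a transcript start) were available for 8 of the 10 genes, in 11 windows. Cct4 and Hsp90ab1 were the genes without a window. The letters TTCNNGAA or GAANNTTC, the core of a heat shock element, were searched on both strands. They were found for Cct2, Cct5, Hspd1 and Hspe1, in 4 of 11 windows, and in 15.1% of all 32851 windows. The matches of Hspd1 and Hspe1 are the same bases in overlapping windows, so the 4 windows hold 3 separate sites. The stretches that hold them are shown because the Hspe1 stretch carries overlapping matches, upstream of the Hspe1 start and within Hspd1, whereas Cct2 and Cct5 each carry a single match. Capitals mark the matched letters.
Hspe1, chr1:55088053-55088082, plus strand, inside an annotated exon of Hspd1: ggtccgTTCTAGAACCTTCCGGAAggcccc
Cct2, chr10:117063399-117063428, minus strand, in no annotated exon: ccccaagtgaaGAAGTTTCtagcaggacct
Cct5, chr15:31601862-31601891, minus strand, inside an annotated exon of Fam173b: acagcggccgaTTCCAGAAgctactctgcg

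The CCAAT letters, searched on both strands, were found in windows of Cct3, Cct7, Hspd1 and Tcp1, and in 37.4% of all windows. The E-box CACGTG, the letters bound by MYC and related factors, was found for Hspd1 alone among the members, and in 7.15% of all windows. The stretch just before Cct3 is shown as an example from a member that rose, with the CCAAT letters in capitals as they read on the opposite strand.
Cct3, chr3:88297000-88297115, plus strand, in no annotated exon: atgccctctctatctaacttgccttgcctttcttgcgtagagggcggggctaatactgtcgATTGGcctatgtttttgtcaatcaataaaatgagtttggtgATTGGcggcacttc
These matches describe letters, and no binding was measured here.

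Expression was given as TPM (transcript abundance, a share of each library per gene length), and depth was worked back from the steps of the values. It was 31445004 to 64013840 reads per WT ovary and 3892690 to 19906507 reads per MP tumor, and each member rested on at least 540 reads in every library. The number after the letters IGO in the library names divides the libraries into 3 sets. Set 1 holds the 3 WT ovaries and MP tumors 1 to 3, set 2 holds MP tumors 4 to 6, and set 3 holds MP tumors 7 to 10. In MP tumor 2 the 10 highest genes took 55.1% of TPM. Trp53 stood at 80.7, 85.0 and 85.4 TPM in WT ovaries and at 4.30 to 187 TPM in MP tumors, of which only MP tumor 10, at 187 TPM, lay above the WT ovaries (log2 fold change −2.23, adjusted P = 0.0579). The mouse Myc gene ranged from 7.09 to 419 TPM in MP tumors against 125 to 129 TPM in WT ovaries. Whether reads of the MYC transposon were counted in it was not stated, so total MYC RNA cannot be read from these values. Markers of normal ovary were lower in tumors: all 6 granulosa, all 6 oocyte and 4 of 5 tested theca and luteal markers fell, where 14.3% of all genes fell. The summed granulosa markers were 3353 to 6277 TPM in WT ovaries and 4.54 to 1507 TPM in MP tumors. Summed theca and luteal markers were 25024 to 28131 TPM in WT ovaries and 7.44 to 824 TPM in MP tumors. The summed epithelial markers were 279 to 306 TPM in WT ovaries and 8.10 to 1199 TPM in MP tumors, and 3 of 7 tested fell and 0 rose. Epcam was 35.3 to 48.6 TPM in WT ovaries and 0.348 to 15.7 TPM in MP tumors, whereas Krt8, at 60.7 to 68.0 TPM in WT ovaries, was 0.590 to 425 TPM in MP tumors. The part of these cell type differences in the results below was not tested.

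TRiC subunit RNA was higher in MP tumors for Cct5, Cct3 and Tcp1. Of the 10 members, these 3 rose and 0 fell in MP tumors against WT ovaries (limma on log2(TPM + 1), Benjamini-Hochberg adjusted P under 0.05 over 17277 genes), where 2.51% of all genes tested rose and 14.3% fell. In each of the 3, all 10 tumors lay above all 3 WT ovaries, as they did in 3.02% of genes tested. The log2 fold changes of the members ran from 0.23 to 1.12 with a median of 0.65, and the median of all genes tested was −0.58.

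Cct5 stood at 510, 588 and 490 TPM in WT ovaries 1 to 3, and in MP tumors its lowest, median and highest values were 693, 1333 and 1750 TPM. The groups did not overlap, and MP tumor 10 was highest. WT ovaries averaged 530 ± 51.9 TPM (SD, n = 3) while the tumors averaged 1207 ± 377 TPM (SD, n = 10), giving a log2 fold change of 1.12 (SE 0.31, limma adjusted P = 0.0235). Cct3 stood at 211, 240 and 186 TPM in WT ovaries and at 258, 469 and 645 TPM (lowest, median, highest) in MP tumors. MP tumors 1 and 3 were highest and MP tumor 5 was closest to the WT ovaries. Its log2 fold change was 1.03 (SE 0.31, limma adjusted P = 0.0334). Tcp1, the first subunit named, stood at 171, 184 and 140 TPM in WT ovaries and at 188, 314 and 431 TPM in MP tumors. The lowest tumor, MP tumor 2, was only just above the highest WT ovary, and the log2 fold change was 0.93 (SE 0.30, limma adjusted P = 0.0448).

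These calls depended on few control libraries. Without any 1 of the WT ovaries, 0 of the 10 members passed limma's adjusted test, and 3 had an unadjusted P under 0.05 each time. Without WT ovary 1, 2 or 3 in turn, 0.781%, 0.886% and 0.544% of all genes rose. The log2 fold change was then 1.10, 1.20 and 1.07 for Cct5, and 1.02, 1.12 and 0.94 for Cct3. Without MP tumor 1, 6, 7 or 8 only Cct5 passed, and without MP tumor 3 Cct5 and Cct3 passed. The Tcp1 call was also lost with a pseudocount of 0.1 (limma adjusted P = 0.0502) and with limma without trend and robust fitting (adjusted P = 0.0577). With library set as a covariate Tcp1 had a log2 fold change of 0.73 (adjusted P = 0.0941) and did not pass, and in set 1 alone its adjusted P was 0.129.

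The other 4 TRiC members did not pass the test on TPM as deposited over all 13 libraries. Under alternatives given below, Cct7 and Cct8 passed with some other scalings, and Cct4 passed in library set 1 alone. Cct8 stood at 368, 433 and 327 TPM in WT ovaries and at 270, 710 and 1270 TPM (lowest, median, highest) in MP tumors, with a log2 fold change of 0.74 (SE 0.39, adjusted P = 0.198). MP tumor 2 lay below the WT ovaries and 8 tumors lay above all of them. Cct7 stood at 161, 184 and 147 TPM in WT ovaries and at 113, 274 and 353 TPM in MP tumors, with a log2 fold change of 0.57 (SE 0.33, adjusted P = 0.235). Its groups overlapped, and 8 tumors lay above all WT ovaries.

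Cct4 stood at 260, 273 and 234 TPM in WT ovaries and at 187, 386 and 601 TPM in MP tumors, with a log2 fold change of 0.51 (SE 0.35, adjusted P = 0.310). MP tumors 5 and 9 lay below every WT ovary and the other 8 above. Cct2 stood at 613, 660 and 516 TPM in WT ovaries and at 361, 688 and 1038 TPM in MP tumors, with a log2 fold change of 0.23 (SE 0.31, adjusted P = 0.609). Only 5 tumors lay above all WT ovaries, the fewest of any TRiC member.

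**Figure D1:**
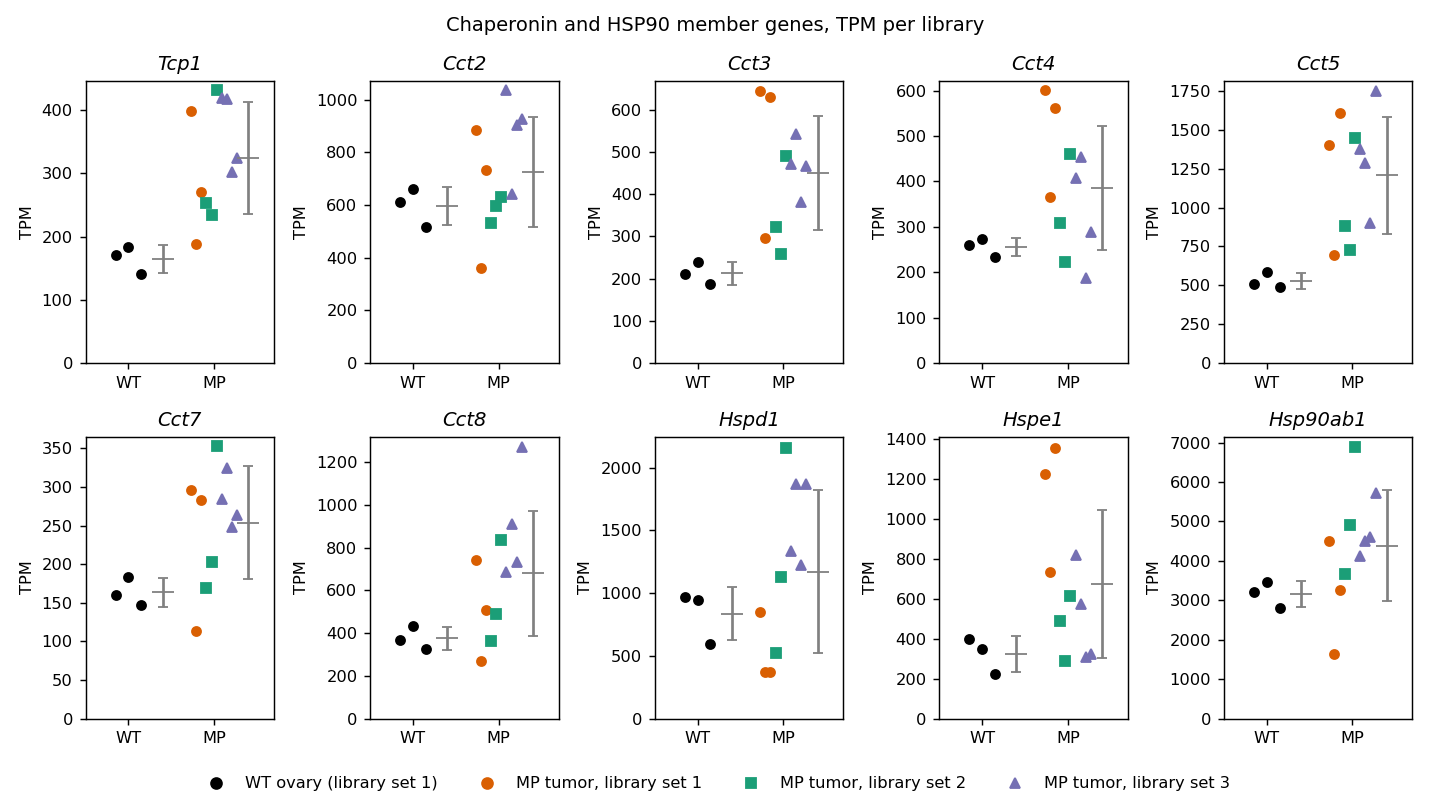
TPM (vertical axes, linear, from 0) of each member in every library, with WT ovaries in black and MP tumors colored by library set, and gray bars for the mean and SD of each group. Cct3, Cct5 and Tcp1 show 10 tumors above all 3 WT ovaries, whereas for Hspe1 the highest points are 2 tumors of library set 1 (orange).

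Because TPM is a share of the library, the fold changes moved with the scaling. With median-of-ratios scaling, which sets the typical gene equal between libraries, the median of all genes was −0.02 and that of the members 1.38. Cct3, Cct5, Tcp1, Cct7, Cct8 and Hsp90ab1 then passed, 6 of 10, where 7.48% of all genes rose. The same 6 passed with voom on the recovered reads, where 10.9% of all genes rose, and with the trend in gene length removed, where 11.5% rose. With quantile normalization 4 passed (Cct3, Cct5, Cct7 and Tcp1), where 11% of all genes rose, while Cct8 had an adjusted P of 0.104 and Hsp90ab1 a log2 fold change of 0.0854 (adjusted P = 0.900). Each member's fold change was above 0 on TPM as deposited and with median-of-ratios scaling. Within library set 1, the only set with both groups, Cct3 (log2 fold change 1.22), Cct4 (0.96), Cct5 (1.13) and Hspe1 (1.76) passed on TPM as deposited, where 6.44% of all genes rose. The same 4 passed with library set as a covariate, where 5.17% of all genes rose. That fit takes the group difference from set 1 alone and gives the same fold changes, so it is not separate support. In set 1 alone, Hspd1 stood at −0.74 (adjusted P = 0.180) and Hsp90ab1 at −0.12, both below 0, and the median of all genes was −1.19. With median-of-ratios scaling within set 1, an alternative added after the values were seen, all 10 members passed and were higher, where 26.6% of all genes rose. With the 7 tumors of sets 2 and 3 against the WT ovaries, Cct3, Cct5 and Tcp1 passed, where 4.68% of all genes rose. No WT ovary is in sets 2 and 3, so set and group cannot be told apart there.

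**Figure D2:**
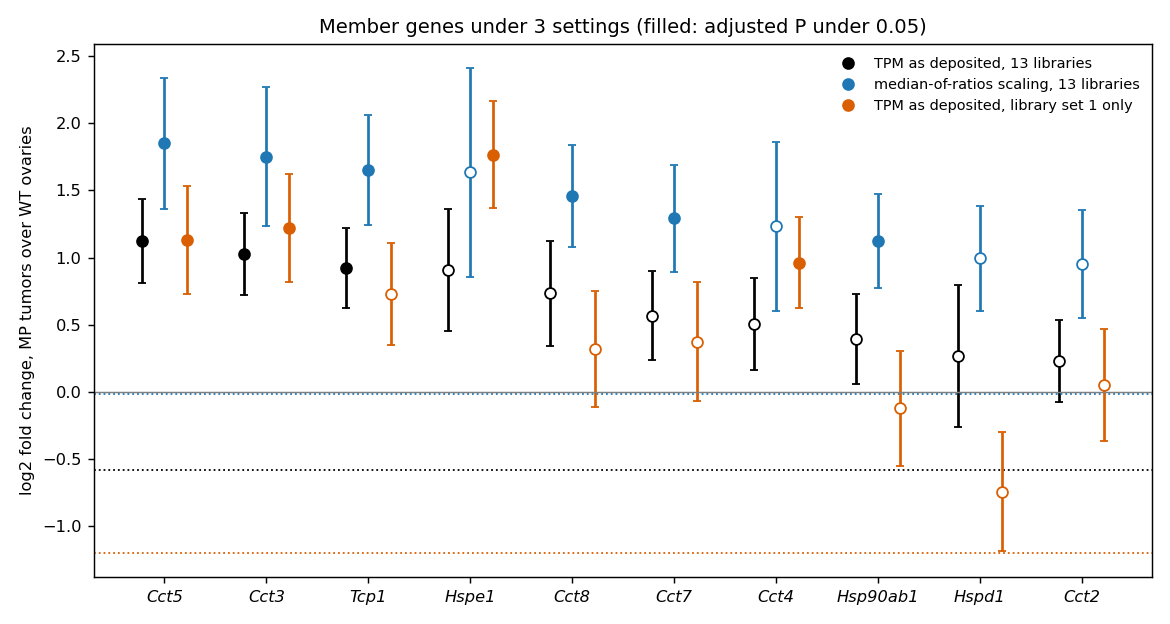
log2 fold change of each member in MP tumors over WT ovaries (vertical axis) with its SE as bars, under TPM as deposited, median-of-ratios scaling, and library set 1 alone. Filled points passed an adjusted P of 0.05, and dotted lines give the median of all genes tested in the same color. The members sit above the dotted line of their own color in each setting.

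The shares of Cct5 and Cct2 among the 7 TRiC members did not overlap between MP tumors and WT ovaries, though that of Cct5 did once Cct6a was added. To compare levels between genes, TPM was rescaled to the length of each gene's principal mRNA in GENCODE, since the table's lengths merge the exons of all transcripts. On that scale Cct5 made up 19.97% ± 0.774 (SD, n = 3 WT ovaries) of the RNA of the 7 subunits in the controls, against 25.2% ± 2.60 (SD, n = 10 tumors) in the MP group. Its share was 19.3 to 20.8% in WT ovaries and 21.2 to 29.5% in MP tumors, without overlap. Cct2 made up 19.6% ± 0.563 in WT ovaries and 13.5% ± 2.93 in MP tumors, and its share of 19.1 to 20.2% in WT ovaries lay above its share of 9.93 to 18.7% in every tumor. Cct3 stood at 17.2% ± 0.227 and 20.4% ± 2.55, and Cct8 at 12.2% ± 0.361 and 12.1% ± 3.31. The shares of Cct3, Cct8, Cct4, Cct7 and Tcp1 overlapped between groups. No test was run on the shares. For single genes on TPM, all tumors lay above all WT ovaries in 3.02% of genes tested and below all of them in 16.4%. They leave out Cct6a, a further subunit gene that is not a member and that rose in MP tumors. With Cct6a added, on the TPM scale, the share of Cct5 was 19.7 to 21.6% in WT ovaries and 21.2 to 30.8% in MP tumors, which overlap, and that of Cct2 was 22.7 to 23.7% and 11.5 to 21.3%, which do not.

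The spread between subunits was wider in most tumors than in the ovaries. The highest subunit exceeded the lowest by 2.27 to 2.53 times in WT ovaries and by 2.495 to 5.35 times in MP tumors, per mRNA length. The highest was Cct5 in all 10 tumors and in WT ovaries 2 and 3 on this scale, and Cct2 in WT ovary 1. Summed TPM of the 7 subunits was 2041 to 2562 in WT ovaries, and in MP tumors its lowest, median and highest values were 2286, 4585 and 5291. The lowest sum was that of MP tumor 2, which was within the range of the WT ovaries.

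**Figure D3:**
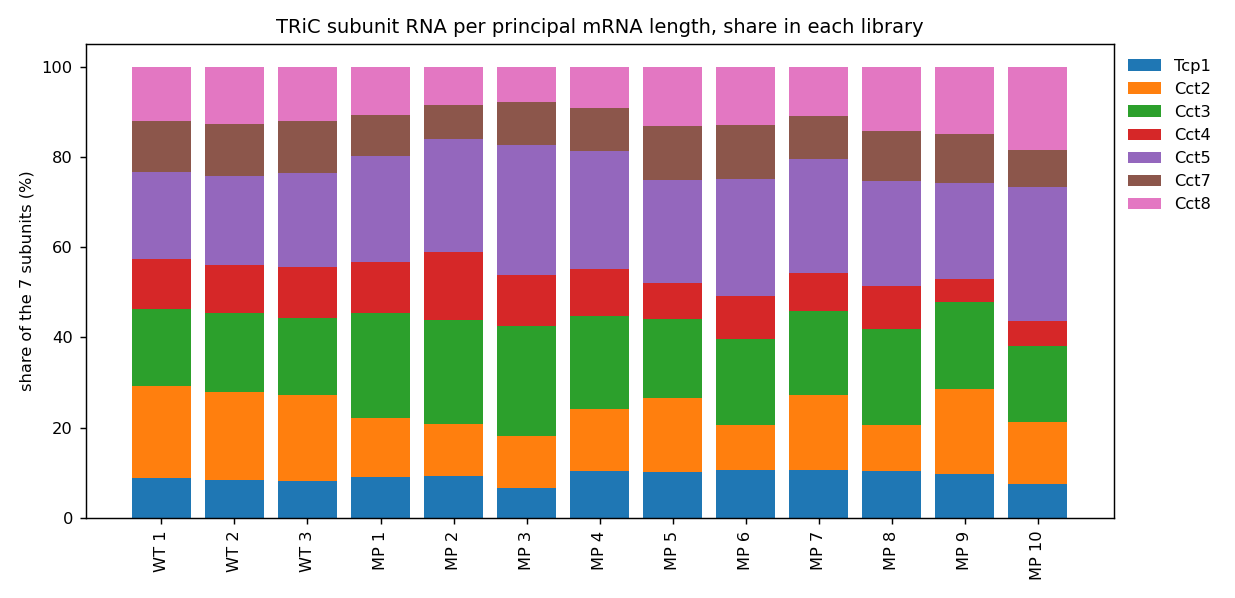
Share (%) of each of the 7 TRiC subunits in their summed RNA, per principal mRNA length, in each of the 13 libraries. The Cct5 segment is wider in the MP tumors (21.2 to 29.5%) than in the WT ovaries (19.3 to 20.8%), and the Cct2 segment is narrower.

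Across the 10 MP tumors most TRiC members correlated with each other. Pearson r between log2 values was above 0 for all 21 pairs of TRiC members, from 0.02 (Cct2 with Cct4) to 0.89 with a median of 0.72, while over all pairs of genes with a mean of at least 10 TPM the median r was 0.42 and 75.9% were above 0. Within the 7 tumors of sets 2 and 3, 20 of the 21 pairs were above 0, with a median of 0.71, and Cct2 with Cct4 stood at −0.12. The share over all gene pairs was not worked out within these 7 tumors, so that count has no background beside it. Over all 45 pairs of members, r ran from −0.47 (Hspd1 with Hspe1) to 0.91 (Cct4 with Hspe1), and 40 were above 0. All values of a tumor share its library and its scaling, so these r are given as a description. Among 9447 other genes with a mean of at least 10 TPM, the 5 whose levels followed the mean of the 7 TRiC members most closely over the 10 tumors were Idh3a (r = 0.974), Smn1 (0.953), Pfdn6 (0.952), Mrps14 (0.950) and Brix1 (0.945). Pfdn6 encodes a subunit of prefoldin, which hands unfolded actin and tubulin to TRiC.

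The mitochondrial pair did not pass the test in MP tumors against WT ovaries over all 13 libraries. Hspd1 stood at 972, 946 and 593 TPM in WT ovaries and at 368, 1177 and 2158 TPM (lowest, median, highest) in MP tumors, with a log2 fold change of 0.27 (SE 0.53, adjusted P = 0.736). Tumors lay on both sides of the WT ovaries, with 6 above all and 3 below all of them. Hspe1 stood at 399, 346 and 223 TPM in WT ovaries and at 290, 595 and 1355 TPM in MP tumors, with a log2 fold change of 0.91 (SE 0.46, adjusted P = 0.177). In 7 tumors it was above all WT ovaries and in none below all of them. In library set 1 alone Hspe1 rose (1.76, limma adjusted P = 0.0058), where 6.44% of all genes rose. With a coefficient of variation of 55.5% for Hspd1 and 55.1% for Hspe1 across tumors, these were the most variable members.

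Levels of the barrel and lid genes were also read by library set. Hspd1 was 849, 368 and 373 TPM in MP tumors 1 to 3, and between 522 and 2158 TPM in the 7 other tumors. Hspe1 was 1223, 732 and 1355 TPM in MP tumors 1 to 3 and between 290 and 819 TPM in the others. The ranges overlapped for each gene taken alone. The mean log2 difference of the tumors of set 1 from the others was −1.44 for Hspd1 and 1.22 for Hspe1 on TPM as deposited, where the median gene differed by −0.84. With median-of-ratios scaling it was −0.10 for Hspd1 and 2.57 for Hspe1, so the Hspd1 difference rested on the scaling. This split was made after the values were seen, so its differences are a description without a test.

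A ratio within a library does not depend on that scaling. The ratio of Hspd1 to Hspe1 TPM was 2.43, 2.73 and 2.66 in WT ovaries. It was 0.694, 0.503 and 0.275 in MP tumors 1 to 3, 1.07, 3.91 and 3.51 in MP tumors 4 to 6, and 1.63, 3.26, 3.94 and 5.76 in MP tumors 7 to 10. The WT ovaries, which belong to set 1, lay within the range of the tumors of sets 2 and 3, and the 3 tumors of set 1 lay below all other libraries. Over all tumors the mean log2 ratio differed from WT ovaries by −0.64 (exact permutation test, 2-sided, P = 0.486, adjusted over 2 ratios 0.486, smallest possible 0.0035). Within set 1, tumors and ovaries differed by −2.504 in mean log2 ratio (P = 0.1 by the exact permutation test, as low as 3 against 3 libraries can go). Between the tumors of set 1 and the 7 others it was −2.66, given as a description because the split was made after the values were seen. Which property of these tumors or libraries goes with the set cannot be told apart.

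Hspd1 and Hspe1 showed no shared variation across the 10 tumors that passed a test (Pearson r = −0.47, permutation P = 0.174; Spearman rho = −0.31, permutation P = 0.389). Without MP tumors 2 and 3, the farthest from the median of Hspd1, r was −0.14 (permutation P = 0.735). Within the 7 tumors of sets 2 and 3, r was 0.13 (permutation P = 0.807).

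**Figure D4:**
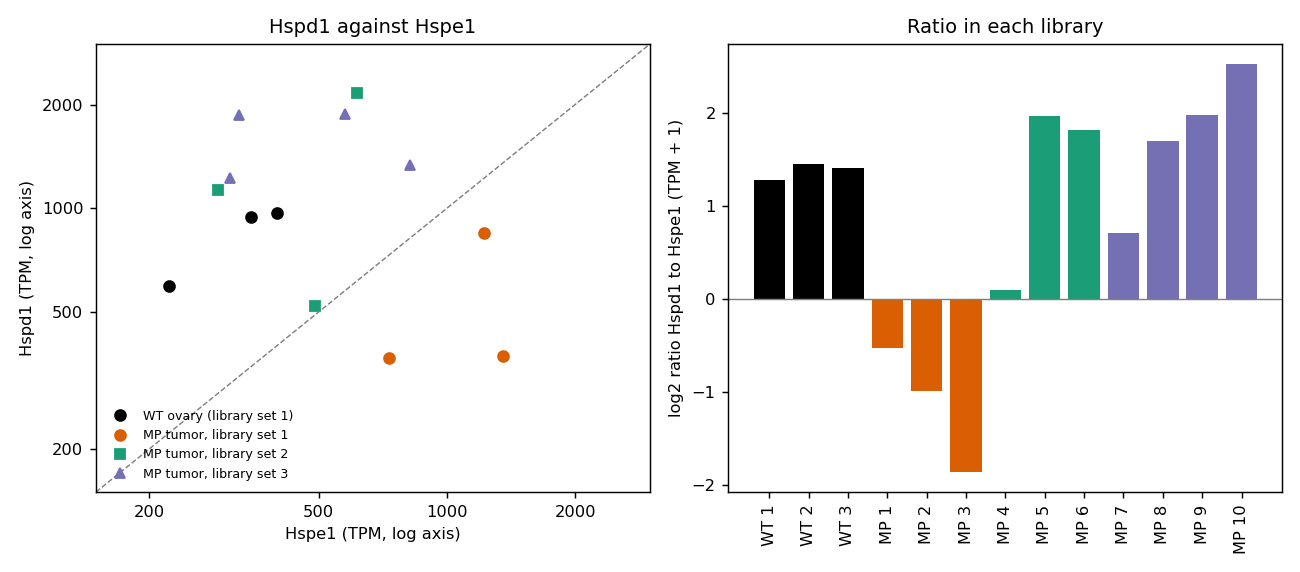
Left, Hspd1 against Hspe1 in TPM on log axes, with a dashed line where both are equal. Right, the log2 ratio of Hspd1 to Hspe1 in each library. The 3 tumors of library set 1 (orange) have ratios of 0.275 to 0.694, and all other libraries lie above 1.

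Hsp90ab1 had the highest TPM of the members. It stood at 3207, 3460 and 2806 TPM in WT ovaries and at 1646, 4503 and 6890 TPM (lowest, median, highest) in MP tumors, with a log2 fold change of 0.40 (SE 0.33, adjusted P = 0.411). MP tumor 2 lay below the WT ovaries and 8 tumors lay above all of them. Hsp90aa1, the stress-inducible cytosolic HSP90, was 247 TPM on average in WT ovaries and 427 TPM in MP tumors (log2 fold change 0.74, adjusted P = 0.148). The ratio of Hsp90ab1 to Hsp90aa1 was 11.4 to 15.9 in WT ovaries and 5.67 to 19.01 in MP tumors, and the mean log2 ratio differed by −0.35 (exact permutation test, 2-sided, P = 0.290, adjusted 0.486).

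Other genes of the same machinery were read beside the members. Their counts stand beside 2.51% of all genes that rose and 14.3% that fell on TPM as deposited, 7.48% and 10.9% with median-of-ratios scaling, and 10.9% and 23.4% with voom. Cct6a, the TRiC subunit gene that is not among the members, stood at 358 to 1278 TPM in MP tumors and at 230 to 319 TPM in WT ovaries, and rose (log2 fold change 1.27, SE 0.37, adjusted P = 0.0290). Among 12 tested TRiC partners, 1 rose (Cct6a), 1 fell (Pdcl, a phosducin-like protein, −1.16) and 10 did not pass, with a median log2 fold change of 0.18. With median-of-ratios scaling 4 partners rose and 0 fell, and Pdcl stood at −0.45. Hspa8, the constitutive cytosolic HSP70 that passes clients to TRiC and HSP90, had a log2 fold change of 0.33 (adjusted P = 0.512). Hsf1 had a log2 fold change of 0.02 (adjusted P = 0.989) over all tumors, and within set 1 it was lower in tumors (−1.86, limma adjusted P = 0.0104). In that fit 9902 of 17277 genes fell and the median of all genes was −1.19, so a fall was common. With median-of-ratios scaling within set 1 Hsf1 did not pass (−0.42). Its level was 2.17 to 11.1 TPM in the tumors of set 1, 17.3 to 77.7 TPM in the others and 19.2 to 24.1 TPM in WT ovaries.

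HSP90 and its co-chaperones gave 1 gene that rose and 2 that fell among 17 tested, with a median of 0.44. Ppid, a cyclophilin that binds HSP90, rose (1.38), and Fkbp5, an immunophilin induced by steroid hormones (−3.92), and Hsp90b1, the HSP90 of the endoplasmic reticulum (−1.35), fell. With median-of-ratios scaling 7 of the 17 rose and 1 fell, and Hsp90b1 no longer passed (−0.63). Of 17 tested HSP70 and HSP110 genes and their nucleotide exchange factors, 0 passed limma's adjusted test, with a median of −0.03. An unadjusted P was under 0.05 for 3, and with voom 2 rose and 2 fell. With median-of-ratios scaling 3 rose and 0 fell, with a median of 0.62. Among 8 small heat shock proteins 0 passed (1 unadjusted, 1 with voom, 1 with median-of-ratios scaling). Among 4 heat shock factor genes 0 passed (1 unadjusted, 0 with voom, 0 with median-of-ratios scaling). Among 12 mitochondrial chaperones and proteases, only Htra2, a protease, rose (1.66) and 0 fell, with a median of 0.39. With median-of-ratios scaling 5 of these 12 rose. Hspa9, the mitochondrial HSP70, had a log2 fold change of 0.44 (adjusted P = 0.495).

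Chaperones of the endoplasmic reticulum and J-domain proteins had medians below that of all genes on TPM as deposited (−0.58), and the J-domain proteins did not with median-of-ratios scaling or voom. Among 15 chaperones of the endoplasmic reticulum, 0 rose and 4 fell, with a median of −0.93, and the largest fall was that of Pdia4, a disulfide isomerase (−2.73, adjusted P = 0.0013). With median-of-ratios scaling 2 of the 15 fell and the median was −0.22. Among 16 J-domain proteins, which deliver clients to HSP70, 0 rose and 5 fell, led by Dnaja4 (−4.11, adjusted P = 3.58e-05), with a median of −0.70. With median-of-ratios scaling 2 of the 16 rose and 5 fell, and the median was 0.0108 where that of all genes was −0.0181. With voom their median was −0.40 and that of all genes −0.46. Among 15 actin and tubulin genes, whose products are folded by TRiC, Tuba4a rose (2.77), Acta2 (−3.23), Tubb2a (−2.25) and Tubb2b (−1.795) fell, and 11 did not pass. Of the 19 genes of these lists that passed, 4 (Dnaja4, Dnajb9, Fkbp5 and Pdia4) still passed without each WT ovary in turn, and the other 15, among them Cct6a, Ppid, Htra2, Hsp90b1, Tuba4a, Acta2 and both Tubb2 genes, lost the call without at least 1 ovary. Acta2 is also a smooth muscle marker, and the summed fibroblast and smooth muscle markers were 1007 to 1680 TPM in WT ovaries and 79.5 to 3162 TPM in MP tumors. The part of that difference in the Acta2 value was not tested.

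**Figure D5:**
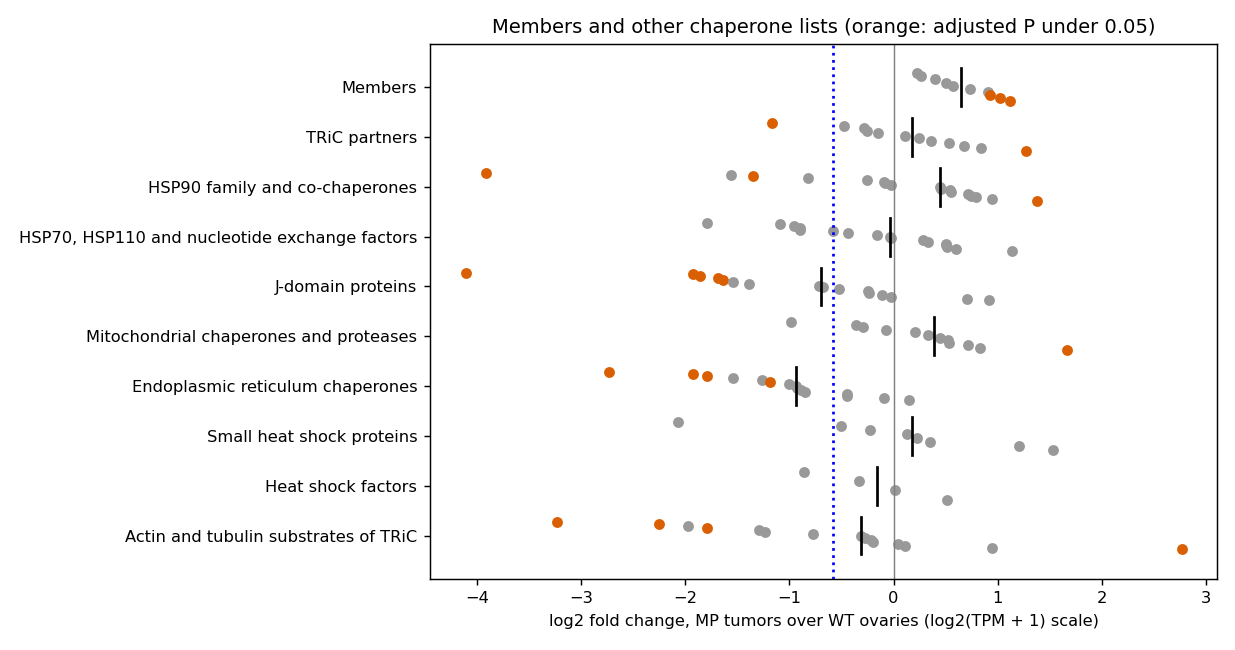
log2 fold change in MP tumors over WT ovaries (horizontal axis) of each tested gene in the members and in 9 lists of related genes, with orange for an adjusted P under 0.05, black bars for list medians and a dotted line for the median of all genes tested (−0.58). The members sit to the right of 0, and the endoplasmic reticulum list has its median at −0.93.

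Processed pseudogenes can take reads from chaperone genes. The 12 pseudogenes named after a member were at most 7.84 TPM (Hspd1-ps3), and 3 were at 0 in every library, beside 368 to 2158 TPM for Hspd1 in MP tumors.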

How the data were processed

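Bulk RNA-seq of 3 WT ovaries and 10 MP tumors was used. The authors deposited TPM values per gene and library, not pooled, and 0 columns belonged to other samples. The submitters' processing notes name FastQC 0.11.5, Trimmomatic 0.36, STAR 2.5.3a and featureCounts 1.6.3 with mm10 (GRCm38), whereas the protocol in the labels names a human build, HTSeq and RPKM. Of the table's genes, 96.0% have GENCODE release 21 positions. TPM is a share, so a gene falls when others take more. Multiples of 1 read were recovered for 100% of values (tolerance 0.01). One read in 1 kb was worth 0.0513 to 0.790 TPM, which limits low values in tumors most.

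The 17277 genes reaching a TPM of 1 in 3 or more libraries were tested as log2(TPM + 1) with limma 3.58.1 in R 4.3.3, trended and robust, without covariates, and fold changes on this scale understate low genes. Benjamini-Hochberg adjustment used a threshold of 0.05. Ratios were compared by exact permutation tests. Scripts were tested on simulated data. Alternatives varied pseudocount, filter, scaling, library set, block, limma options and single libraries. The members and lists were chosen with earlier results of these data known. Named genes were the members, Trp53, Myc, the closest partners, the 2 strongest of each list, member pseudogenes and the 5 genes most like TRiC, and other genes of a list that passed the test were named after their values were seen. Separate animals were not stated for each library, so P values measure the spread between libraries. Strand use in counting was not given in the sources used here.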

Additional observations from a re-analysis of the deposited data

Results flagged for a closer look

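An outlier rule flagged a single tumor in 4 of 34 measures checked, where about 1.7 were expected by chance. The genes share the same tumors, so that figure is only a rough guide. Dnaja4 was 5.29 TPM in MP tumor 5 against 0.251 to 2.07 TPM in the other tumors. Hsbp1, which encodes a binding protein of heat shock factor 1, was 96.1 TPM in MP tumor 2 against 176 to 238 TPM. In that tumor the 10 highest genes took 55.1% of TPM, which lowers the share left for others. Its median-of-ratios scaling factor was 0.316, against 0.500 to 1.46 in the other tumors. Whether Hsbp1 stands apart on that scale was not tested. Hsf2 was 13.1 TPM in MP tumor 9 against 3.44 to 6.03 TPM, and Tubb2a was 49.1 TPM in the same tumor against 4.58 to 27.99 TPM. None of the 10 members was among these 4. Trp53 was not among them either, though it was 187 TPM in MP tumor 10 against 4.30 to 26.0 TPM in the other tumors. The list therefore does not hold every tumor that stood far from the rest.

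The tumors of library set 1 differed from the other tumors in Hspd1 (log2 difference −1.44), in Hspe1 (1.22) and in their log2 ratio (−2.66), on TPM as deposited. The median gene differed by −0.84 on that scale. With median-of-ratios scaling the difference was −0.10 for Hspd1 and 2.57 for Hspe1, so that of Hspd1 rested on the scaling. This split was made after the values were seen, and the differences were not tested on other libraries.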

How the results depend on the processing

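Of 918 fold changes of 34 named genes under alternatives, 758 kept their direction and side of the threshold, 56 no longer passed, 72 newly passed and 32 changed direction. The number of members that rose (3) was 6 with median-of-ratios scaling, 6 with the length trend removed, 6 with voom on recovered reads, 4 with quantile normalization, 2 with a pseudocount of 0.1, 2 with limma without trend and robust fitting, 4 in set 1 alone and 4 with set as a covariate (in both Cct3, Cct4, Cct5 and Hspe1, without Tcp1), 10 in set 1 with median-of-ratios scaling (added after seeing the data, where 26.6% of all genes rose), and 0 to 3 without 1 library. Genes that rose (433) became 1292 with median-of-ratios scaling, 1904 with quantile normalization, 1992 with the length trend removed, 1879 with voom, 1112 in set 1 alone, 894 with set as a covariate, 4594 in set 1 with median-of-ratios scaling, 808 with tumors of sets 2 and 3 only, and 94 to 635 without 1 library. Genes that fell (2463) became 1326 with a filter at 10 TPM, 1596 with the length trend removed, 4042 with voom, 9902 in set 1 alone, 8534 with set as a covariate, 5570 in set 1 with median-of-ratios scaling, and 1158 to 3264 without 1 library. The cause was not tested.

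WT ovaries and MP tumors 1 to 3 share replicate numbers, but an ovary and a tumor of 1 number come from mice of different groups, WT and EPO-GEMM. Their deviations correlated at −0.0963, −0.0214 and 0.00118 between same numbers, so the numbers do not pair them. With a replicate block, 1 member (Hspe1), 1095 genes that rose and 9838 that fell passed.

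In set 1 alone, with set as a covariate and with the replicate block, Hsp90ab1 (−0.12), Hspa9 (−0.47), Hspd1 (−0.74) and Hsf1 (−1.86) changed direction, and Hsf1 passed as lower (limma adjusted P = 0.0104, 0.0076 and 0.0021). These fits share the same group difference within set 1. Of 17277 genes, 9902, 8534 and 9838 fell in them, with a median of −1.19 over all genes. Hsf1 was also −0.0291 with a pseudocount of 0.1, −0.42 in set 1 with median-of-ratios scaling, and −0.18 to 0.34 without 1 library. Hsbp1 was 0.39 with median-of-ratios scaling, 0.27 with the length trend removed, 0.0141 with voom and 1.15 in set 1 with median-of-ratios scaling. Hsf2 was 0.14 with quantile normalization, 0.19 with the length trend removed and 0.58 in set 1 with median-of-ratios scaling. Myc was 0.0348 with median-of-ratios scaling, 0.0222 with the length trend removed and 0.37 with tumors of sets 2 and 3 only, and Pdcl was 0.0787 in set 1 with median-of-ratios scaling. With tumors of sets 2 and 3 only, the log2 ratio of Hspd1 to Hspe1 differed by 0.16 and their correlation across tumors was 0.13.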
